A study of Homo sapiens with 20 samples.

Results

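The comparison described here sets the 4 arrays of the NME1-E5A line against the 4 arrays of the NME1-K12Q line, 8 of the 20 arrays of the study, across all measured transcripts. WM793 is an established cell line from a vertical growth phase melanoma, the stage at which the tumour has begun to invade the dermis. The design text describes the lines other than Parent as WM793 cells that overexpress an NME1 construct, so both lines compared here still carry the endogenous NME1 of WM793 beside the construct. NME1-E5A carries the construct with the E5A substitution and NME1-K12Q the construct with the K12Q substitution, and the other lines are Parent, NME1-wild-type and NME1-P96S. Cells grew for 3 days before RNA was taken for Affymetrix human exon arrays. The sources used here name no promoter for the constructs and do not say whether a line is 1 clone or a pool. Each construct is represented by 1 line, and the design text calls the 4 arrays of a line technical replicates. The p-values below therefore measure only the spread between these arrays, and a difference between the constructs cannot be told apart from another difference between the lines.

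NME1 is a nucleoside diphosphate kinase, an enzyme that passes phosphate groups between nucleotides, and it is known as a metastasis suppressor. It is also described as an exonuclease that trims DNA ends and as a member of the SET complex of DNA repair proteins. E5A is described as a substitution that impairs the exonuclease while the kinase is kept, and K12Q as one that impairs the kinase as well. The title of the study asks for transcripts that go with metastasis suppression by NME1, and setting one mutant against the other asks which transcripts differ between lines that carry different loss-of-function forms.

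The values are log2 expression levels, so a difference of 1 is a doubling. All differences are NME1-E5A minus NME1-K12Q. A feature is a gene's row of the table, or a row without a single gene symbol, called by its identifier. Arrays of NME1-E5A correlated with each other at r between 0.987 and 0.994 across rows, those of NME1-K12Q at 0.972 to 0.992, and arrays of different lines at 0.972 to 0.993. The interquartile range of an array was 2.71 to 2.80 in NME1-E5A and 2.46 to 2.98 in NME1-K12Q, whose replicate 2 was among the 3 narrowest of all 20 arrays. The median SD of a feature over 4 arrays was 0.139 in NME1-E5A and 0.211 in NME1-K12Q. Of 5 measured melanoma markers, SOX10 (9.35 in both lines) and S100B (8.72 and 8.22) lay above the array median on all 8 arrays. The means of MITF, PMEL and MLANA lay below every array median in both lines. They were 5.66, 4.73 and 3.55 in NME1-E5A and 5.75, 4.67 and 3.96 in NME1-K12Q. Leukocyte, fibroblast, endothelial and epithelial markers had 1 of 7, 1 of 7, 0 of 8 and 2 of 8 members above the array median on all 8 arrays, and none of the members of these lists changed.

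The transcript of NME1 itself did not differ between the lines beyond the spread of the arrays. Row 3726934, given to NME1 and to the NME1-NME2 readthrough transcript, read 9.69, 9.77, 9.94 and 9.72 on the NME1-E5A arrays and 9.45, 9.93, 9.89 and 9.74 on the NME1-K12Q arrays. The arrays of the lines overlapped, with means of 9.78 ± 0.109 and 9.75 ± 0.216 (SD, n = 4). The difference was 0.03, and an exact permutation test (two-sided) gave p = 0.771, where 0.0286 is the smallest it can give. Its sign turned without NME1-E5A replicate 3 (-0.021) or without NME1-K12Q replicate 1 (-0.069). In Parent the row was at 9.53 ± 0.173, so that NME1-E5A lay 0.26 and NME1-K12Q 0.23 above it, and neither passed (limma adjusted p = 1 for both). A higher NME1 transcript level than in Parent was therefore not detected in either line by this test. The probes of this row do not separate the construct from the endogenous transcript, and the row does not show the substitution. The row of NME2, the closest paralog, differed by -0.01. Of the other NME genes, NME3, NME4, NME5, NME6, NME8 and NME9 differed by 0.01, 0.06, 0.21, -0.06, 0.09 and -0.19, and none changed.

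A feature counted as changed when its limma adjusted p was under 0.05 and it differed by 1.5-fold or more. Between the lines 31 of 18384 features changed, which is 0.169% of those tested, with 16 higher in NME1-E5A (0.087%) and 15 lower (0.0816%). The share of 0.169% is the background for each count of changed list members below. Of the 31 features, 24 have a single gene symbol, 12 higher and 12 lower. The genes higher in NME1-E5A were ALDOC, NRN1, SERPINA3, BEND5, GPR146, AK4, ENO2, VLDLR, BNIP3, TMEM255A, TMEFF2 and ITGA9, and those lower were EREG, MMP3, BMP2, NETO2, VIPR1, SLC7A11, MRGPRX4, GDA, SLC5A3, IRF4, DNER and INHBA. The higher group holds glycolytic enzymes and other genes known to respond to low oxygen, and the lower group holds secreted growth factors, a matrix protease and cell surface receptors. Of the 31 features 15 changed by 2-fold or more, and the largest difference was the 3.18-fold of ALDOC. The levels of the 4 arrays did not overlap between the lines in any of the 31, which the selection of these features on the same arrays favours, so nothing is read from it. Over all features the share without overlap was 3.54%. Most transcripts lay close to equal levels, with a median difference of 0.0007 and a median absolute difference of 0.08 over all features, and 512 features (2.79%) had an unadjusted p under 0.05 where 5% of them would be 919. The count depended on the setting: it was 94 with array weights, 61 with the interquartile range of each array as a covariate, 48 without the 3 narrowest arrays and 5 with limma's treat test against 1.5-fold. Whichever of the 8 arrays was left out, 21 of the 31 kept their call. The count was 22 to 28 when single arrays were left out, and the number higher fell from 16 to 10 without NME1-K12Q replicate 3 and to 10 without NME1-K12Q replicate 4.

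**Figure D1:**
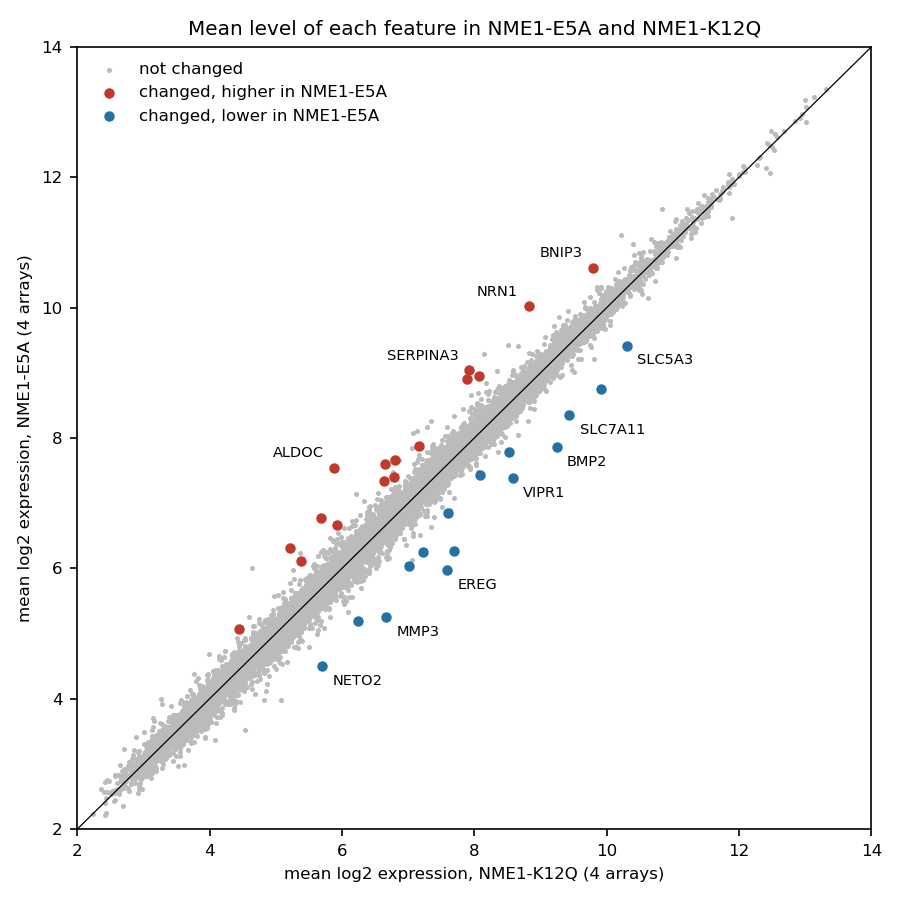
Mean log2 expression of each of the 18384 features in NME1-K12Q (x axis) and NME1-E5A (y axis), each over 4 arrays, with the line of equal levels. Red points are the 16 features changed and higher in NME1-E5A, blue points the 15 lower, and grey points the features that did not pass; the changed features spread over low, middle and high levels.

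The genes with the clearest common background among the higher ones belong to glycolysis and to the response to low oxygen. In that response the transcription factor HIF, made of an oxygen-labile alpha subunit such as HIF1A and a stable partner, binds DNA at a short core with the letters ACGTG or GCGTG and raises glucose uptake, glycolysis and mitophagy genes. The promoters of the 3 changed members of these lists are shown because they are the members that passed, and those of EREG and NETO2 from the lower group are shown for comparison and were chosen after their values were seen. Each is the RefSeq sequence on GRCh38.p14 from 250 bases before to 50 bases after the gene's start, 5′ to 3′ on the gene's strand, and capitals mark ACGTG or GCGTG on either strand (CACGT and CACGC when read on the other strand). The windows are chr17:28576846-28577145 (minus strand) for ALDOC, chr12:6914330-6914629 (plus) for ENO2, chr10:131981874-131982173 (minus) for BNIP3, chr4:74364895-74365194 (plus) for EREG and chr16:47143896-47144195 (minus) for NETO2.
ALDOC: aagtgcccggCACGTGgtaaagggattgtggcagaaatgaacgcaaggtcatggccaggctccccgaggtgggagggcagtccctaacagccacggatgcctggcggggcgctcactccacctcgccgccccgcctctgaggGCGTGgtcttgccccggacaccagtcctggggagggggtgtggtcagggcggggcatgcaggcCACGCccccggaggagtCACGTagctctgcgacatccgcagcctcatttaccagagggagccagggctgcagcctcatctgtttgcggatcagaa
ENO2: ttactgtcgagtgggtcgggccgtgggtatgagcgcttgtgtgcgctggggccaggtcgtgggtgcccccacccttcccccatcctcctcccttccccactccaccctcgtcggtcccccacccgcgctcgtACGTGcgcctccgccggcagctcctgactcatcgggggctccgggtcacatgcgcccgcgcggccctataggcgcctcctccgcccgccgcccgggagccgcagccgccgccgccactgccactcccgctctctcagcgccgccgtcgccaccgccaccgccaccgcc
BNIP3: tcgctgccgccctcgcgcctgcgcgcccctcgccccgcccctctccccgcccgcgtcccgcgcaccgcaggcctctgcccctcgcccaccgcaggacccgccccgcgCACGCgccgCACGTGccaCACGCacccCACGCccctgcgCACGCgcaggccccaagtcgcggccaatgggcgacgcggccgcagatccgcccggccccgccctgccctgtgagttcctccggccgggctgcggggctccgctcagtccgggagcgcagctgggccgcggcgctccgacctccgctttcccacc
EREG: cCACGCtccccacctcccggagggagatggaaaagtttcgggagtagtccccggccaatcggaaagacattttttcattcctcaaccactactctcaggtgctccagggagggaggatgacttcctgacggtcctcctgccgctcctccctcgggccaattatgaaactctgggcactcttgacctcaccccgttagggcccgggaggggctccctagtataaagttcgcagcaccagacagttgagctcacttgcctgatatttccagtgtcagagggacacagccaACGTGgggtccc
NETO2: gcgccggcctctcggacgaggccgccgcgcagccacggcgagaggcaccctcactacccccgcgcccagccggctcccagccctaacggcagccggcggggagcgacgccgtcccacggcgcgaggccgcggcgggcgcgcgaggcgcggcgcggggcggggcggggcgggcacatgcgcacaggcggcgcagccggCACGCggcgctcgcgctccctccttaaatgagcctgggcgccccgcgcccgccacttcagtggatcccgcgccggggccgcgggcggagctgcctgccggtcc
ALDOC holds 3 matches to ACGTG and 2 to GCGTG, ENO2 holds 1 to ACGTG, which begins 118 bases before the start, and BNIP3 holds 2 to ACGTG and 4 to GCGTG. The letters CACGTG, present in ALDOC and BNIP3, hold ACGTG on both strands and count as 2 matches. EREG holds 1 match to each core and NETO2 1 to GCGTG. Either core is common: it occurs in 14318 of 27305 genes of the RefSeq table (52.4%), counting a gene with any window that holds it, and in 48.4% of the 35116 windows. Of the changed genes 19 matched the table. Either core occurs in 8 of the 11 matched genes higher in NME1-E5A (AK4, ALDOC, BNIP3, ENO2, GPR146, TMEFF2, TMEM255A and VLDLR) and in 4 of the 8 matched lower ones (EREG, IRF4, NETO2 and SLC5A3). Of the 43 matched members of the hypoxia and glycolysis lists 40 hold it. A gene with more windows has more places to hold it. Counted by window, either core occurs in 53 of the 73 windows of these list members. It occurs in 12 of 15 windows of the higher genes and in 4 of 9 of the lower ones. TGANTCA, the AP-1 motif, occurs on either strand in 9.37% of genes, and in ENO2 alone among the matched changed genes. A match describes the letters of a window and no binding was measured.

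Glycolysis was represented by 2 changed genes, both higher in NME1-E5A, and both are isoforms best known from brain. ALDOC, the brain form of the aldolase that splits fructose bisphosphate, had the largest difference of any feature. It read 7.70, 7.51, 7.42 and 7.56 in NME1-E5A and 5.94, 6.04, 5.74 and 5.80 in NME1-K12Q, a difference of 1.67 or 3.18-fold (SE 0.134, limma adjusted p = 1.63e-06). The lowest NME1-E5A array stood more than 1 log2 unit above the highest NME1-K12Q array. ENO2, the neuronal enolase, read 8.98, 8.90, 8.85 and 9.06 in NME1-E5A against 8.13, 8.02, 8.08 and 8.04 in NME1-K12Q, a difference of 0.88 or 1.85-fold (SE 0.118, limma adjusted p = 0.00061). Arrays within a line lay close together for ENO2, with SDs of 0.0909 and 0.049. The widely expressed isoforms and GAPDH did not pass: ENO1 read 13.18 and 12.99, GAPDH 13.23 and 13.13, and ALDOA 10.57 and 10.42 in NME1-E5A and NME1-K12Q. Of 23 measured genes of glycolysis and pyruvate handling, 2 were higher, 0 were lower and 21 did not pass. Values were positive for 20, against 50.2% of all features, and the median difference was 0.23 against 0.0007 over all features. The mean level of these 23 genes was 9.97 to 10.02 on the NME1-E5A arrays and 9.63 to 9.72 on the NME1-K12Q arrays. This is above the array medians, and the values over all features are not matched for level. The arrays did not overlap for 10 of the 23 (43.5%, against 3.54% of all features), all higher in NME1-E5A, and 8 (34.8%, against 2.79%) had an unadjusted p under 0.05. The list was written with earlier results of these data known, and its members were read on the same arrays. These shares are therefore a description. PDK1, the kinase that shuts pyruvate dehydrogenase, read 9.29, 9.54, 9.62 and 9.24 and 8.45, 8.19, 8.67 and 8.74, a difference of 0.91 that did not pass (limma adjusted p = 0.143). PGK1, which makes ATP from bisphosphoglycerate, read 11.35, 11.04, 11.18 and 10.90 and 10.47, 10.53, 9.62 and 10.26, a difference of 0.90 (limma adjusted p = 0.57), and its NME1-K12Q arrays were widely spread. At the other end of the list PFKM, PDHA1 and LDHB differed by -0.08, -0.07 and -0.06. The median was 0.17 to 0.26 when single arrays were left out, and both calls held whichever array was left out.

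Other hypoxia response genes had mostly positive values, and 1 of them passed. BNIP3, a mitochondrial protein that marks mitochondria for removal, read 10.79, 10.48, 10.64 and 10.55 in NME1-E5A and 9.90, 9.56, 9.91 and 9.79 in NME1-K12Q. The difference was 0.83 or 1.77-fold (SE 0.157, limma adjusted p = 0.0252). This call was close to the threshold: whichever of the 8 arrays was left out, the adjusted p was 0.0515 to 0.13 and the count of changed members was 0, while the difference was 0.75 to 0.87. Of 25 measured members of the list of hypoxia response genes outside glycolysis, 1 was higher, 0 were lower and 24 did not pass. Values were positive for 23 and the median difference was 0.42, against 0.0007 over all features. The mean level of the list was 8.08 to 8.18 on the NME1-E5A arrays and 7.62 to 7.76 on the NME1-K12Q arrays. This too is above the array medians, and all features are not matched for level. For 13 members (52%) the arrays did not overlap, each higher in NME1-E5A, against 3.54% of all features. An unadjusted p under 0.05 was found for 13 (52%), against 2.79% of all features. As for glycolysis, the list was written with earlier results of these data known, so these shares are a description. FAM162A, a mitochondrial protein induced by low oxygen, had the largest value of the list and read 8.60, 7.88, 8.19 and 7.74 against 7.38, 6.86, 7.07 and 7.24, a difference of 0.96 that did not pass (limma adjusted p = 0.295). INSIG2, which holds back sterol synthesis in the endoplasmic reticulum, read 8.48, 8.09, 8.34 and 8.11 against 7.64, 6.98, 7.18 and 7.58, a difference of 0.91 just outside the threshold (limma adjusted p = 0.0751). HILPDA, a lipid droplet protein, read 8.13, 7.50, 7.63 and 7.39 against 7.31, 6.51, 6.71 and 6.90. The mitophagy receptor BNIP3L, the regulatory enzyme PFKFB4, the stress protein DDIT4 and the collagen cross-linker LOX differed by 0.74, 0.70, 0.67 and 0.58, none of which passed. NDRG1 and VEGFA, other well-known hypoxia genes, were near equal with values of 0.15 and 0.10, and STC2 and EGLN3 were the members with negative values, -0.11 and -0.04. Without NME1-K12Q replicate 2 the median was 0.35, and over the other arrays left out it was 0.37 to 0.46. With the interquartile range of each array as a covariate 5 members changed and the median was 0.40.

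**Figure D2:**
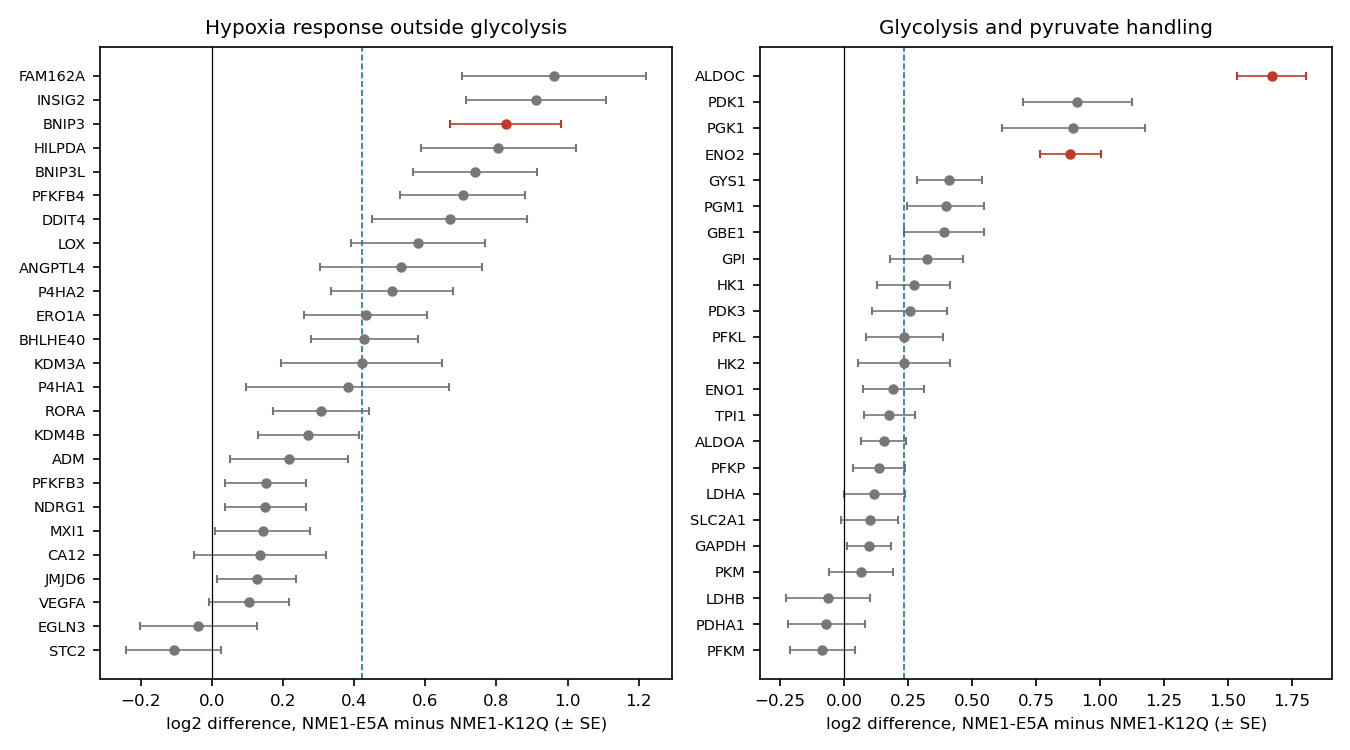
Log2 difference between NME1-E5A and NME1-K12Q (x axis, ± SE from the fit, 4 arrays per line) for each measured member of the hypoxia list (25 genes, left) and the glycolysis list (23 genes, right). Red points passed (BNIP3 on the left, ALDOC and ENO2 on the right), grey points did not, and the dashed lines are the medians, 0.42 and 0.23; 43 of the 48 points lie to the right of 0.

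None of the regulators of the hypoxia response passed the test. Of 13 measured HIF subunits, hydroxylases and cofactors 0 changed, and the median was -0.02 with 4 positive values. HIF1A, the oxygen-labile subunit, read 10.99, 11.13, 11.43 and 11.10 in NME1-E5A and 11.24, 11.22, 11.45 and 11.39 in NME1-K12Q, a difference of -0.16. The largest value of this list was CITED2 at 0.32, a cofactor that competes with HIF for its coactivator. Transcript levels do not show the amount of HIF protein, which is set largely by its breakdown. Neither HIF protein nor oxygen was measured here, and the cause of the values in the hypoxia and glycolysis lists was not tested.

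Against the other lines the hypoxia and glycolysis genes were placed as follows, in comparisons that share arrays and are given side by side. The median of the hypoxia list against Parent was 0.63 in NME1-E5A and 0.15 in NME1-K12Q, where all features had medians of -0.04 and -0.05. Against NME1-wild-type it was 0.49 and 0.06, and against NME1-P96S 0.37 and -0.01. For the glycolysis list the medians against Parent were 0.36 and 0.17, against NME1-wild-type 0.29 and 0.06, and against NME1-P96S 0.27 and 0.02. ENO2 was at 8.95 in NME1-E5A, 8.07 in NME1-K12Q, 7.92 in NME1-P96S, 7.88 in NME1-wild-type and 7.65 in Parent, and NME1-E5A passed against each of the other lines (limma adjusted p from 1.33e-05 to 0.00061). ALDOC was ordered otherwise, with 7.55 in NME1-E5A, 7.11 in NME1-P96S, 6.93 in NME1-wild-type, 6.13 in Parent and 5.88 in NME1-K12Q. For ALDOC NME1-E5A did not pass against NME1-P96S (0.44, limma adjusted p = 0.382) or NME1-wild-type (0.62, limma adjusted p = 0.077), nor did NME1-K12Q against Parent (-0.26, limma adjusted p = 1). NME1-K12Q was lower in ALDOC than NME1-wild-type by 1.05 and than NME1-P96S by 1.23 (limma adjusted p = 0.000915 and 0.000145).

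AK4 and VLDLR, which stand in the lists of nucleotide metabolism and of low-density lipoprotein receptors, were higher in NME1-E5A as well. AK4, a mitochondrial adenylate kinase family member that is also a known hypoxia-induced gene, read 8.95, 8.91, 8.97 and 8.77 against 7.94, 7.67, 7.84 and 8.09. Its difference was 1.02 or 2.02-fold (SE 0.199, limma adjusted p = 0.0332), and it did not pass whichever of the 8 arrays was left out (adjusted p from 0.0611 to 0.148). The SE draws on all 5 lines, and the SD of AK4 was 0.557 in Parent, 0.0885 in NME1-E5A and 0.178 in NME1-K12Q. AK4 was the 1 changed gene of 36 measured in nucleotide metabolism, a list with 18 positive values and a median of 0.01. GDA, which changed as well, is not a member of that list. RRM2 and UCK2 of that list differed by 0.06 and -0.03. VLDLR, a receptor of lipoproteins and of reelin, read 7.60, 7.72, 7.70 and 7.65 against 6.82, 6.71, 6.77 and 6.91, a difference of 0.86 (SE 0.132, limma adjusted p = 0.0026). Its 4 arrays within each line lay within SDs of 0.0536 and 0.086. The 10 other measured members of the receptor family did not pass, and the list had a median of 0.02. Across the lines VLDLR and AK4 were highest in NME1-E5A, and NME1-E5A passed against each of the other lines for VLDLR (limma adjusted p from 8.99e-05 to 0.0026) but not against NME1-wild-type for AK4 (0.0957).

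The remaining 7 genes higher in NME1-E5A belong to none of the hypoxia, glycolysis, nucleotide or lipoprotein receptor lists. NRN1 is neuritin, a membrane-anchored protein that promotes neurite growth. It read 10.28, 10.01, 9.91 and 9.88 in NME1-E5A and 8.95, 8.66, 8.73 and 8.94 in NME1-K12Q, a difference of 1.20 or 2.30-fold (SE 0.154, limma adjusted p = 0.000347). SERPINA3, the secreted protease inhibitor antichymotrypsin, read 9.15, 8.86, 9.08 and 9.09 against 8.23, 7.55, 7.99 and 7.90, a difference of 1.13 (SE 0.14, limma adjusted p = 0.000242). In SERPINA3 NME1-K12Q replicate 2 was the lowest of the 4 at 7.55, and the call held without it. BEND5, a DNA-binding protein of the BEN domain family, read 6.54, 6.29, 6.17 and 6.23 against 5.33, 5.43, 5.05 and 5.08, a difference of 1.09 (SE 0.134, limma adjusted p = 0.000242). The NME1-K12Q mean of BEND5, 5.22, lay well below the array medians. GPR146, a G protein-coupled receptor, read 6.68, 6.75, 6.99 and 6.68 against 5.94, 5.36, 5.74 and 5.72, a difference of 1.08 (SE 0.181, limma adjusted p = 0.00686). Its lowest array was again NME1-K12Q replicate 2. TMEM255A, a membrane protein, read 7.25, 7.35, 7.32 and 7.43 against 6.52, 6.62, 6.64 and 6.77, a difference of 0.70 (limma adjusted p = 0.0026). TMEFF2, a membrane protein with follistatin-like domains, read 5.12, 5.09, 4.98 and 5.09 against 4.64, 4.51, 4.27 and 4.34. Its difference of 0.63 (limma adjusted p = 0.00912) did not pass without NME1-K12Q replicate 3 or 4, with an adjusted p of up to 0.0676. Without NME1-K12Q replicate 3 the difference was 0.57, under the limit of 1.5-fold. Both means of TMEFF2, 5.07 in NME1-E5A and 4.44 in NME1-K12Q, lay well below the array medians. ITGA9, an integrin alpha subunit that binds tenascin, read 7.34, 7.52, 7.46 and 7.31 against 6.85, 6.95, 6.69 and 6.69, a difference of 0.62 (limma adjusted p = 0.0252). ITGA9 kept its call only without NME1-K12Q replicate 2, and lost it without each of the other 7 arrays (adjusted p up to 0.141). Without NME1-E5A replicate 2 the difference was 0.577, under the limit of 1.5-fold.

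**Figure D3:**
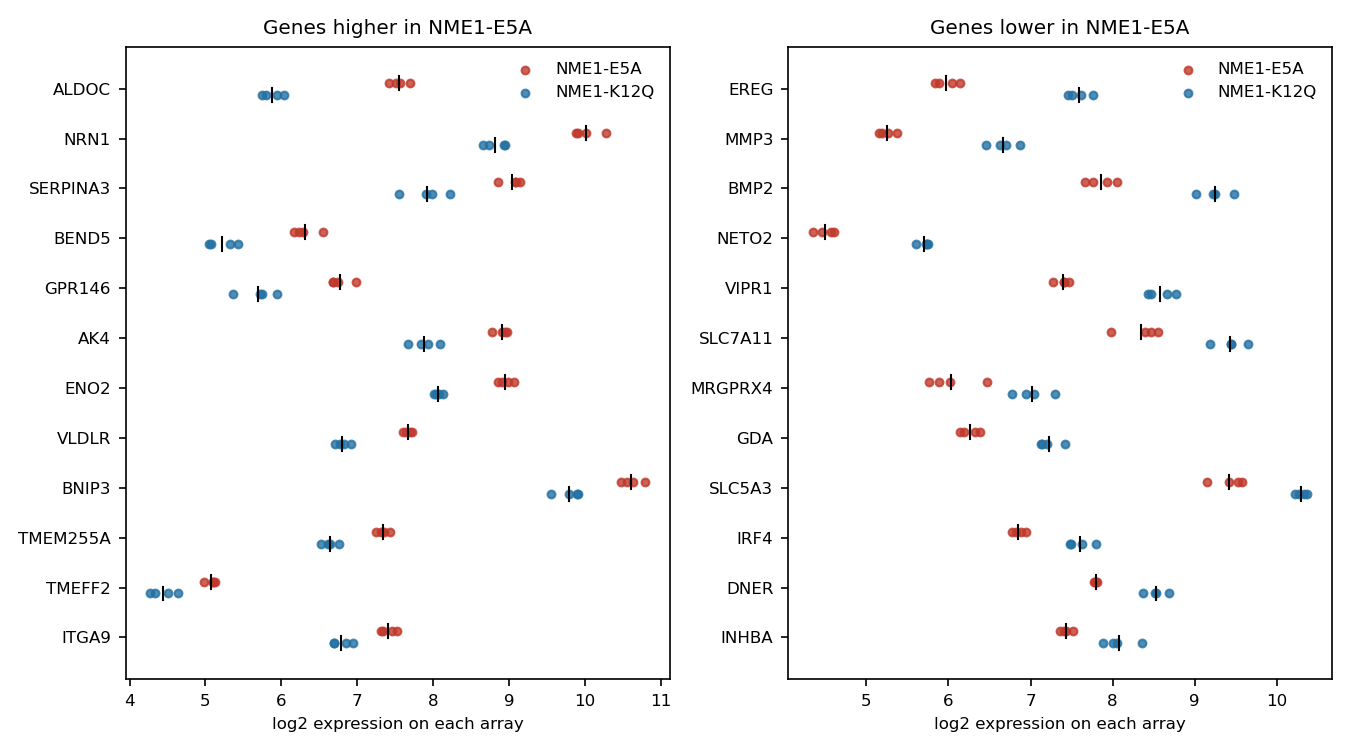
Log2 expression on each of the 8 arrays (x axis) for the 12 changed genes higher in NME1-E5A (left) and the 12 lower (right), with NME1-E5A in red, NME1-K12Q in blue and a black tick at each mean of 4 arrays. In each of the 24 genes the arrays of the lines are separated, by the widest margin in ALDOC and EREG. The selection of these genes on the same arrays favours this separation.

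Among the genes lower in NME1-E5A, 3 are secreted growth factors. EREG, epiregulin, a ligand of the EGF receptor, read 6.04, 5.89, 5.83 and 6.13 in NME1-E5A and 7.77, 7.50, 7.45 and 7.62 in NME1-K12Q. The difference was -1.61, or 3.06-fold lower in NME1-E5A (SE 0.168, limma adjusted p = 2.16e-05). It was the 1 changed gene of 12 measured EGF ligands and ERBB receptors, whose median was -0.01. The receptors ERBB3 and ERBB2 differed by 0.20 and 0.01 without passing. BMP2, a bone morphogenetic protein, read 7.67, 7.93, 7.76 and 8.06 against 9.02, 9.48, 9.23 and 9.24, a difference of -1.39 or 2.62-fold lower (SE 0.139, limma adjusted p = 1.6e-05). The arrays were separated by nearly 1 log2 unit. INHBA, which forms activin A, a TGF-beta family ligand, read 7.44, 7.52, 7.35 and 7.41 against 8.06, 7.89, 8.01 and 8.36, a difference of -0.65 (SE 0.116, limma adjusted p = 0.014). INHBA did not pass without NME1-E5A replicate 1, 3 or 4 or NME1-K12Q replicate 1 or 4, with an adjusted p of at most 0.0901. Without NME1-K12Q replicate 4 the difference was -0.55, under the limit of 1.5-fold. INHBA was the 1 changed gene of 21 measured members of the TGF-beta and activin list, whose median was 0.01, and TGFBI and BAMBI in that list differed by 0.04 and 0.00. BMP2, which changed as well, is not a member of that list.

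Among matrix proteases and their inhibitors 1 gene passed. MMP3, stromelysin, which cleaves matrix proteins and activates other proteases, read 5.38, 5.27, 5.19 and 5.16 in NME1-E5A and 6.88, 6.45, 6.62 and 6.70 in NME1-K12Q. The difference was -1.41, or 2.67-fold lower in NME1-E5A (SE 0.136, limma adjusted p = 1.58e-05). The NME1-E5A mean of MMP3, 5.25, lay well below the array medians, and the values carry no measure of signal over background. MMP1, interstitial collagenase, read 12.28, 11.92, 12.10 and 11.97 against 12.55, 12.36, 12.50 and 12.45, and its difference of -0.40 did not pass (limma adjusted p = 0.59), though the arrays did not overlap. MMP2 differed by -0.09. Of 29 measured proteases and inhibitors 28 did not pass, 17 had positive values and the median was 0.03. The arrays did not overlap for 8 of the 29, against 3.54% of all features. An unadjusted p under 0.05 was found for 5 of the 29, against 2.79% of all features.

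Receptors and neural surface proteins made up a further group of the lower genes. NETO2, an accessory subunit of kainate-type glutamate receptors, read 4.46, 4.57, 4.35 and 4.60 in NME1-E5A and 5.73, 5.60, 5.74 and 5.75 in NME1-K12Q, a difference of -1.21 or 2.31-fold lower (SE 0.118, limma adjusted p = 1.58e-05). Its NME1-E5A mean of 4.50 lay well below the array medians, and the values carry no measure of signal over background. NETO2 was the 1 changed gene of 11 measured in a list of motility genes that NME1 has been reported to repress, whose median was 0.11. VIPR1, a receptor for vasoactive intestinal peptide, read 7.41, 7.47, 7.41 and 7.27 against 8.47, 8.77, 8.43 and 8.66, a difference of -1.19 (SE 0.138, limma adjusted p = 0.000106). MRGPRX4, a Mas-related receptor of sensory neurons, read 6.46, 5.77, 5.88 and 6.02 against 7.30, 6.77, 7.05 and 6.95, a difference of -0.99 (SE 0.173, limma adjusted p = 0.0113). The arrays of MRGPRX4 were more widely spread, and it did not pass without NME1-E5A replicate 2 or 3 or NME1-K12Q replicate 1 or 3, with an adjusted p of at most 0.0759. DNER, a neuronal membrane protein with EGF repeats linked to Notch, read 7.80, 7.80, 7.77 and 7.79 against 8.52, 8.38, 8.51 and 8.69, a difference of -0.73 (SE 0.12, limma adjusted p = 0.00569). Its NME1-E5A arrays lay within an SD of 0.0143.

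Transporters, an enzyme and a transcription factor completed the lower genes. SLC7A11, the cystine-glutamate exchanger that feeds glutathione synthesis, read 8.47, 8.40, 8.55 and 7.98 against 9.66, 9.19, 9.45 and 9.45, with NME1-E5A replicate 4 the lowest. The difference was -1.09 (SE 0.219, limma adjusted p = 0.0427), and the call was lost whichever of the 8 arrays was left out (adjusted p from 0.0538 to 0.233). It was the 1 changed gene of 15 measured NRF2 antioxidant targets, of which 3 had positive values and the median was -0.14. In the list of amino acid and unfolded protein stress, SLC7A11 was lower and VLDLR higher among 26 measured, with a median of -0.02, and SLC7A5 and HSPA5 differed by -0.32 and -0.01. SLC5A3, which takes up myo-inositol, read 9.15, 9.42, 9.58 and 9.52 against 10.22, 10.28, 10.37 and 10.33, a difference of -0.88 (SE 0.159, limma adjusted p = 0.0143). SLC5A3 did not pass without NME1-E5A replicate 1 or 2 or NME1-K12Q replicate 3 or 4, with an adjusted p of at most 0.091. GDA, guanine deaminase, which turns guanine into xanthine, read 6.13, 6.19, 6.33 and 6.38 against 7.13, 7.13, 7.42 and 7.21, a difference of -0.96 (SE 0.134, limma adjusted p = 0.00094). IRF4, a transcription factor of pigment and lymphoid cells, read 6.88, 6.94, 6.82 and 6.77 against 7.49, 7.80, 7.62 and 7.48, a difference of -0.75 (SE 0.115, limma adjusted p = 0.00274). It was the 1 changed gene of 16 measured in melanocyte lineage and pigmentation, where 5 values were positive and the median was -0.11. SOX10, the lineage factor of melanocytes, differed by 0.00, and GPNMB, a melanosome protein, by -0.09.

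The levels of the other lines place some of the changed genes as follows, in comparisons that share arrays with the one described. NME1-E5A was the highest or lowest of the 5 lines in 29 of the 31 features and NME1-K12Q in 17. Over all features the shares were 30.3% for NME1-E5A and 29% for NME1-K12Q. Features chosen for a difference between these lines tend to have them outermost, so these counts are a description. NRN1, BEND5, VLDLR and VIPR1 differed between NME1-K12Q and Parent by 0.15, 0.07, 0.31 and -0.07, none of which passed. VIPR1 was at 7.39 in NME1-E5A, 8.58 in NME1-K12Q, 8.65 in Parent, 8.43 in NME1-wild-type and 8.67 in NME1-P96S. NME1-E5A passed against each of the other lines in these 4 genes, with limma adjusted p from 7.5e-05 to 0.00302 outside the comparison with NME1-K12Q. Other changed genes were placed otherwise. In SERPINA3 NME1-E5A did not pass against Parent (0.41, limma adjusted p = 0.814) or NME1-P96S (0.39, 0.676). There NME1-K12Q was lowest at 7.92 and passed against NME1-P96S (-0.74, limma adjusted p = 0.0191). In TMEFF2, SLC5A3 and DNER NME1-E5A passed against none of Parent, NME1-wild-type and NME1-P96S. NETO2 had a wider order, with 6.71 in NME1-wild-type, 5.70 in NME1-K12Q, 5.60 in Parent, 5.50 in NME1-P96S and 4.50 in NME1-E5A, where NME1-K12Q did not pass against Parent or NME1-P96S (limma adjusted p = 1). EREG lay at 7.94 in NME1-wild-type, 7.59 in NME1-K12Q, 7.06 in Parent, 6.23 in NME1-P96S and 5.97 in NME1-E5A. For EREG NME1-K12Q did not pass against NME1-wild-type or Parent, and it passed against NME1-P96S (1.36, limma adjusted p = 0.000393). NME1-E5A did not pass against NME1-P96S in EREG (-0.25). BMP2 and MMP3 stood on either side of Parent: BMP2 was at 9.24 in NME1-K12Q, 8.56 in Parent and 7.86 in NME1-E5A, and MMP3 at 6.66, 5.87 and 5.25. For BMP2 the step from Parent to NME1-E5A passed (-0.70, limma adjusted p = 0.0314) and the step from Parent to NME1-K12Q did not (0.69, 0.198). For MMP3 neither step passed (-0.62, limma adjusted p = 0.0736, and 0.80, 0.0969). Among the 12 genes lower in NME1-E5A, SLC7A11 and INHBA were the 2 with NME1-P96S below NME1-E5A, at 7.10 against 8.35 and 7.10 against 7.43.

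**Figure D4:**
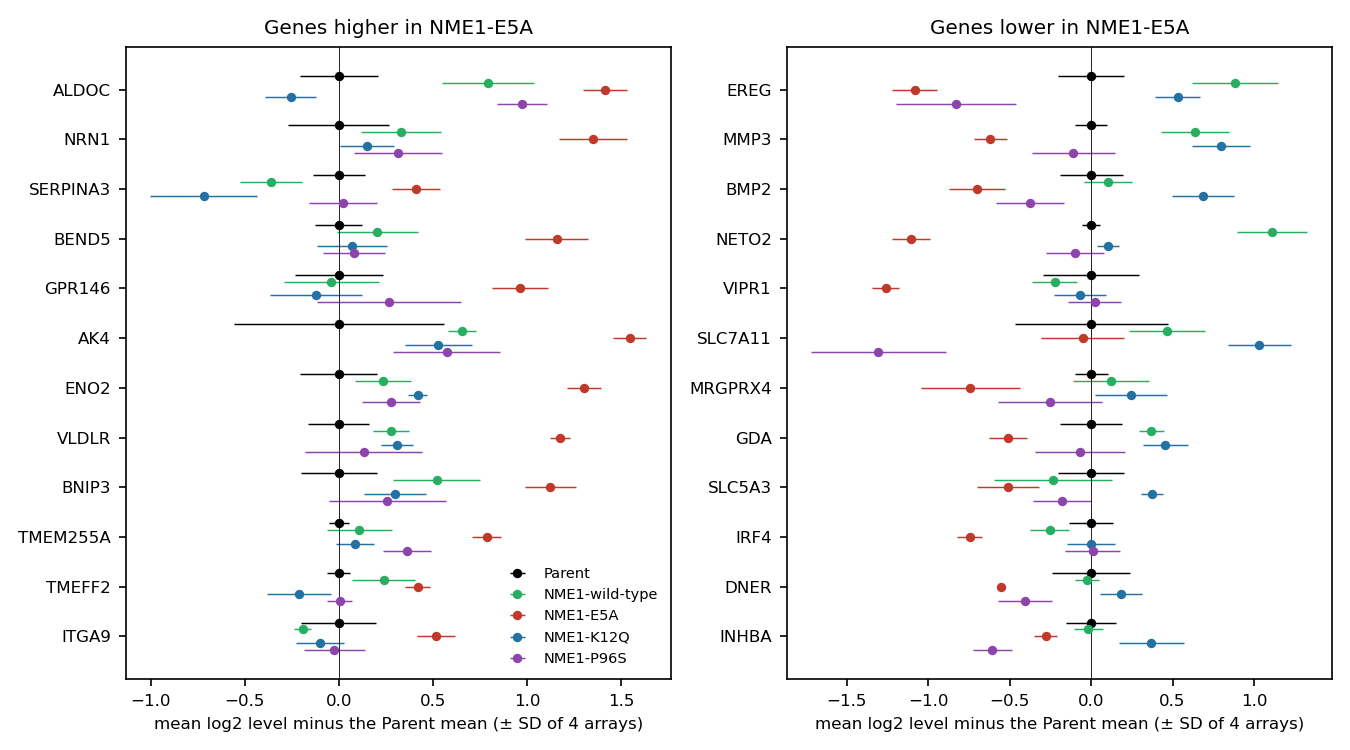
Mean log2 level of each changed gene in the 5 lines, relative to the Parent mean (x axis, ± SD of 4 arrays), for the 12 genes higher in NME1-E5A (left) and the 12 lower (right). NME1-E5A lies outermost in 22 of the 24 genes, the exceptions being SLC7A11 and INHBA, where NME1-P96S is lowest. Over all features NME1-E5A is highest or lowest in 30.3%, and the choice of these genes favours an outermost place.

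Few members of the other gene lists passed the test. Of the 33 lists 11 had at least 1 changed member and 22 had none, where 0.169% of all features changed. Outside the hypoxia and glycolysis lists the medians lay between -0.15 and 0.25. Arrays without overlap were found in these lists too: in 3 of 12 EGF ligands and ERBB receptors, 6 of 33 interferon-stimulated genes, 2 of 8 genes of MHC class II, 3 of 13 of MHC class I and 4 of 26 Wnt and Frizzled genes, against 3.54% of all features. Shares above that of all features were thus not limited to the hypoxia and glycolysis lists. Nucleotide excision and SET complex genes, which include partners of NME1, had 0 changed of 18 and a median of 0.02, with SET at -0.15 and DDB1 at -0.10. Cell cycle genes had 0 of 30 and a median of -0.04, p53 targets 0 of 20 and a median of -0.0029, and genes of MAPK pathway output 0 of 21 and a median of -0.02. Extracellular matrix genes had 0 of 29 and integrin and focal adhesion genes 0 of 22, with medians of -0.01 and 0.03. The integrin ITGA9, which changed, is not a member of that list. A p that misses the threshold does not show that a gene is equal in both lines.

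**Figure D5:**
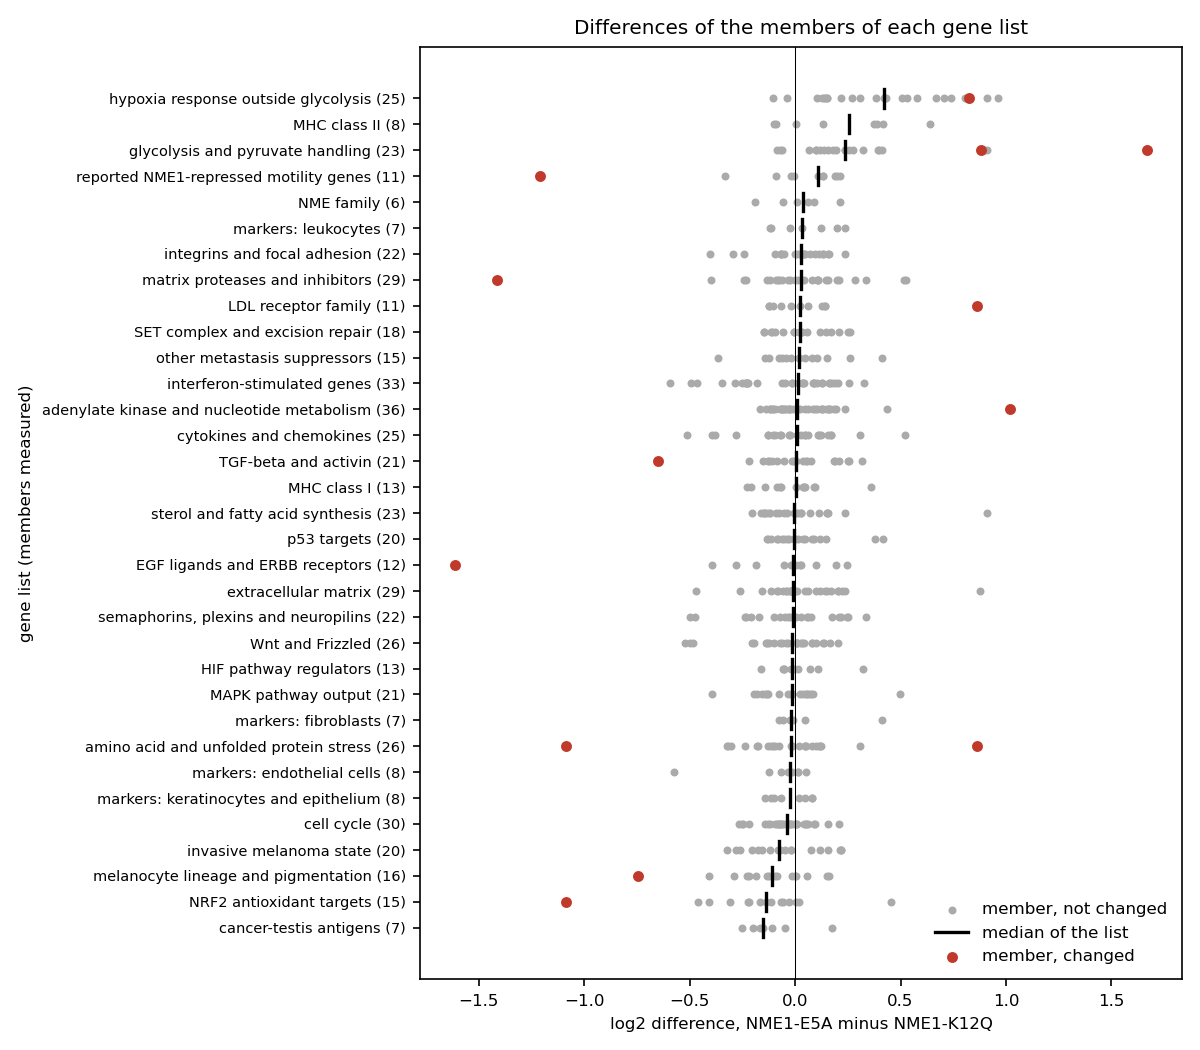
Log2 difference between NME1-E5A and NME1-K12Q (x axis) of each measured member of the 33 gene lists (y axis, number measured in parentheses), ordered by median. Red points are changed members, grey points members that did not pass, and black bars the list medians, of which the hypoxia list is the highest at 0.42; MHC class II follows at 0.25 and glycolysis at 0.23.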

How the data were processed

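Expression was measured on 20 Affymetrix human exon arrays, 4 for each of 5 lines, and each array's line and number were taken from its title. The deposited table holds log2 values from the RMA method, as the authors' design text and the submitters' processing notes state. These notes also name limma, and versions, genome build and annotation are not given in the sources used here. RMA gives each transcript cluster 1 value, so isoforms are merged.

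Of 18708 rows, 14735 had 1 symbol in the platform annotation, 2873 several and 1100 none. For a gene with several rows the row of highest mean was kept, which left out 324 rows and gave 18384 features. Near-identical copies, such as the protocadherin and CTAGE genes, may share probes. A mean for each of the 5 lines was fitted over all 20 arrays with limma 3.58.1 (lmFit, eBayes, 15 residual degrees of freedom) in R 4.3.3, two-sided, with Benjamini-Hochberg adjustment over all features, and the procedure was tested on simulated data. The row of NME1 was also compared by an exact permutation test (Python 3.11.15, scipy 1.17.1). No set test was run, and lists are described by counts and medians.

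Named were the NME family, up to 30 changed genes per direction, and in each of 33 lists up to 4 changed members and 2 others of highest mean; other names (such as FAM162A, PDK1 or CITED2) were chosen after their values were seen. The members and lists were chosen with earlier results of these data known. Alternatives covered the arrays fitted, normalisation, covariates, weights, test and filters. The promoter of NME1 is not shown since the data do not bear on it. The number of arrays limits the precision.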

Additional observations from a re-analysis of the deposited data

Results flagged for a closer look

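In 9 of 196 groups of 4 arrays, 1 array stood apart from the other 3, with a gap to its nearest neighbour, as a share of the range of the 4, above Dixon's critical value. That share is given in parentheses. Chance alone passes this limit in about 5% of groups, which here would be 9.8. Among changed features these were NME1-E5A replicate 4 in row 2643217 (TF and SRPRB), low at 7.41 beside 7.67 to 7.69 (0.937), NME1-E5A replicate 1 in row 2377035 (IL24 and FCMR), high at 5.46 beside 5.09 to 5.14 (0.864), and NME1-K12Q replicate 2 in NETO2, low at 5.60 beside 5.73 to 5.75 (0.868). All 3 features kept their call without that array. Among features that did not pass, NME1-E5A replicate 4 was high in NME9 (0.839) and low in GPNMB, 8.66 beside 8.94 to 8.95 (0.961). NME1-E5A replicate 1 was high in the class II gene HLA-DPA1, 10.38 beside 9.95 to 10.02 (0.835). NME1-E5A replicate 2 was low in the chaperone CALR (0.892) and high in the endothelial receptor KDR, 5.43 beside 5.18 to 5.19 (0.932), and NME1-E5A replicate 3 was high in the junction gene CLDN5 (0.865). The causes were not tested.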

How the results depend on the processing

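Every one of the 31 changed features kept its direction under each of the other settings and with each array left out, and 23 passed under each of the settings, other than limma's treat test, that did not leave out a single array. The count of changed features (31, with 16 higher and 15 lower) was 61 (34 and 27) with each array's interquartile range as covariate, 94 (51 and 43) with array weights, 48 (25 and 23) without the 3 narrowest arrays, and 5 (1 and 4) with treat against 1.5-fold, which kept ALDOC, EREG, MMP3, BMP2 and row 3768412 and asks whether the fold itself exceeds 1.5. It was 27 to 39 under the remaining settings. With single arrays left out it was 22 to 28, with 10 to 14 higher and 12 to 14 lower. The changed members of the hypoxia list (1) were 3 with only the 8 arrays of these lines, 3 with quantile normalisation, 5 with the covariate, 6 with weights, 2 without the 3 narrowest arrays, 0 with treat and 0 whichever array was left out. Its median (0.42) was 0.33 with weights and 0.35 without the narrowest arrays, and 0.35 to 0.46 without single arrays. The changed glycolysis genes (2) were 4 with weights and 1 with treat, and the median (0.23) was 0.18 without the narrowest arrays and 0.17 to 0.26 without single arrays. The row of NME1 turned sign without NME1-E5A replicate 3 (-0.021) and NME1-K12Q replicate 1 (-0.069), with a range of -0.069 to 0.089 without single arrays, and its sign-flip p over 4 pairs was 0.75. Among named genes that did not pass, IFI6 was called with array weights, and KDR without a fold limit, without the narrowest arrays or without NME1-E5A replicate 2. These causes were not tested.

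Arrays of the same number deviated together with correlations of 0.60, 0.18, 0.27 and -0.15, and 5 of 8 arrays correlated best with their own number, a hint from the data, not the design. Since 1 of the 4 correlations was below 0.1 and no label ties the numbers, they were not treated as pairs. A replicate block gave 37 changed features (20 higher, 17 lower) and 4 changed hypoxia genes, and kept 29 of the 31, without SLC7A11 and row 2439917. Each construct is 1 line with technical replicates, and the values used here carry no measure of signal over background.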

Other observations

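Several rows could not be given to a single gene. Row 2643217, listed for TF, the iron carrier transferrin, and SRPRB, read 7.69, 7.67, 7.67 and 7.41 in NME1-E5A and 6.96, 6.40, 6.61 and 6.66 in NME1-K12Q, a difference of 0.95 (limma adjusted p = 0.0012). Row 2832325, listed for the protocadherins PCDHB5, PCDHB19P, PCDHB9 and PCDHB14, differed by 0.74 (limma adjusted p = 0.0026). Row 2377035, listed for the cytokine IL24 and for FCMR, was lower in NME1-E5A, at 5.46, 5.10, 5.14 and 5.09 against 6.57, 6.03, 6.22 and 6.12, a difference of -1.04 (limma adjusted p = 0.00178). Its NME1-E5A mean of 5.20 lay well below the array medians. The rows 2439917 (SLAMF9 and FCRL6) and 3029230 (TCAF2, TCAF1 and CTAGE genes) differed by 0.74 and 0.71. The first was not called whichever of the 8 arrays was left out (adjusted p from 0.0892 to 0.169), and the second was called only without NME1-E5A replicate 1 (adjusted p up to 0.213 without the others). Rows 3768412 and 3791935, which the annotation does not list, were lower in NME1-E5A by -1.42 and -1.16. Row 3768412 read 6.27, 6.31, 6.26 and 6.21 against 7.69, 7.65, 7.85 and 7.56, and it was the 1 feature that changed in NME1-K12Q against Parent.

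No counted member of the MHC, interferon and cytokine lists passed, and some genes of other kinds lay just outside the threshold. IRF4 and the rows 2377035 and 2439917, which changed, are not counted in these lists. Of 8 measured genes of MHC class II, which presents antigen to helper T cells, 0 changed, 6 had positive values and the median was 0.25. HLA-DRA read 9.37, 8.54, 8.59 and 8.28 in NME1-E5A and 8.77, 8.01, 7.47 and 7.98 in NME1-K12Q, a difference of 0.64, and HLA-DPA1 and the invariant chain CD74 differed by 0.42 and 0.38 (limma adjusted p = 1 for both). MHC class I had 0 of 13 and a median of 0.0033. Of 33 interferon-stimulated genes 0 changed and the median was 0.02, with IFI6 at -0.59 (limma adjusted p = 0.672). Of 25 cytokines and chemokines 0 changed, with the inflammatory cytokine IL1B at -0.51 (limma adjusted p = 0.467). HAS2, which makes hyaluronan, read 6.05, 6.25, 6.40 and 6.28 against 5.58, 5.18, 5.23 and 5.48, a difference of 0.88 just outside the threshold (limma adjusted p = 0.0628), and the surface protein THY1 differed by 0.63 (0.0786). Just outside on the lower side were ST6GALNAC5, a sialyltransferase, at -0.59 (0.0513), and SYT6, a synaptotagmin, at -0.59 (0.0536). The neurotrophin receptor NTRK3 read 5.58, 5.59, 5.46 and 5.64 against 6.22, 6.14, 6.16 and 6.09, a difference of -0.58 with a limma adjusted p of 0.0253 and a fold of 1.499, under the limit of 1.5. KDR and the actin-binding protein ABLIM1 also had an adjusted p under 0.05 with a smaller fold, at -0.57 and -0.54. All of these names were chosen after their values were seen, apart from HLA-DPA1, CD74, IFI6, IL1B and KDR.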
